A study of Mus musculus with 4 samples.

Results

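CXC chemokines are small secreted proteins that steer leukocytes, and 10 genes of this family of ligands were followed in CD8+ T cells enriched from tumour grafts. Their rows were found by gene symbol among 36464 gene IDs, and all 10 were present. The ligands were chosen from their gene family with their levels in these same libraries already known. The values below, and the fits given for these ligands, are therefore a description and not independent support. They comprise 5 neutrophil-recruiting ligands (Cxcl1, Cxcl2, Cxcl3, Cxcl5 and Ppbp), 3 interferon-induced ligands (Cxcl9, Cxcl10 and Cxcl11), and Pf4 and Cxcl16. Male wild-type C57BL/6 mice carried grafts under the skin and were injected into the peritoneal cavity for 2 weeks, either with control IgG (6 mice) or with an antibody against SIGLEC15, a sialic acid-binding lectin studied as an immune checkpoint (6 mice). Grafts were taken on day 19. Each library pooled 3 cell pellets, which left 2 libraries per treatment, so the spread given here is that between pools. The line that was grafted is not named in the labels.

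The neutrophil-recruiting ligands carry a Glu-Leu-Arg motif ahead of their paired cysteines and act through the receptor CXCR2, while CXCL9, CXCL10 and CXCL11 lack it and draw activated T cells and natural killer cells through CXCR3. NF-kB signalling downstream of interleukin 1 and tumour necrosis factor induces most of the first kind, though Ppbp is known as a platelet gene. Interferon gamma induces the second kind. In tumours the first kind is known for bringing in myeloid cells and the second for bringing in killer T cells.

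Total counted reads lay between 14854802 and 16026197 per library. The CD8 label was borne out by T cell genes in every library, but unevenly: Cd8a, a chain of the CD8 coreceptor, measured 115 and 351 RPKM in the first and second IgG library and 290.2 and 315 RPKM in the first and second anti-SIGLEC15 library. Every set of 4 values below keeps this order of libraries. RPKM is the number of reads per kilobase of exon, scaled to the counted reads of the library. IgG replicate 1 was the lowest library for 14 of 14 T cell identity genes and the highest for 11 of 12 tested neutrophil markers, 8 of 12 hepatocyte and hepatoma markers and 6 of 7 tested epithelial markers. The share of all tested genes with IgG replicate 1 highest or lowest was not counted. With both anti-SIGLEC15 libraries between, 11.3% had IgG replicate 1 highest and IgG replicate 2 lowest, and 16.1% had the reverse. On these lists IgG replicate 1 stands apart. The fold change of each tested ligand, and of some other genes, is given with and without it. In a bulk library, fewer cells of a type and less RNA per cell cannot be told apart.

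Of the 10 ligands, 9 lie on mouse chromosome 5 in 2 clusters 1415 kb apart (GRCm38). The first, from 90759360 to 90905938 and 147 kb long, holds the 5 neutrophil-recruiting genes and Pf4, all on the plus strand. The second, from 92321347 to 92365485 and 44.1 kb long, holds Cxcl9, Cxcl10 and Cxcl11 on the minus strand. Cxcl16 lies alone on chromosome 11, from 70453983 to 70459984. The promoters of the 3 most abundant neutrophil-recruiting genes and of Cxcl10 are shown because the first 3 windows share an element and the window of Cxcl10 holds others besides. Whether these elements bear on the levels in these libraries was not tested. Each window runs from 250 bases before to 50 bases after the transcription start (RefSeq, GRCm38.p6) and reads in the sense of the gene. It lies at chr5:90890995-90891294 for Cxcl1, chr5:90903649-90903948 for Cxcl2 and chr5:90785851-90786150 for Cxcl3, all plus strand, and at chr5:92348840-92349139 for Cxcl10, minus strand. Capitals mark matches to the NF-kB consensus, to the interferon-stimulated response element core GAAANNGAAA and to the AP-1 site TGANTCA.

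Cxcl1: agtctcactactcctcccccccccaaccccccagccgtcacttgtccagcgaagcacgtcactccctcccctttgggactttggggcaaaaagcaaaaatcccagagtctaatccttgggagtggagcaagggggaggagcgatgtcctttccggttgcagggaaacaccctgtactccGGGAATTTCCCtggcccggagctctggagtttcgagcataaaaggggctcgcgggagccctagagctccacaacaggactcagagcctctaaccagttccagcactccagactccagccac
Cxcl2: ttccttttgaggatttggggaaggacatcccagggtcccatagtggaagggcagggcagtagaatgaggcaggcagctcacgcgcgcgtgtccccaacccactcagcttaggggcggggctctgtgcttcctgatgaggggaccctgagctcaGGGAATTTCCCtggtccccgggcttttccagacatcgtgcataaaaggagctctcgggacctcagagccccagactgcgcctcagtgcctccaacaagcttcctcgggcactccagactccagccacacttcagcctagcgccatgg
Cxcl3: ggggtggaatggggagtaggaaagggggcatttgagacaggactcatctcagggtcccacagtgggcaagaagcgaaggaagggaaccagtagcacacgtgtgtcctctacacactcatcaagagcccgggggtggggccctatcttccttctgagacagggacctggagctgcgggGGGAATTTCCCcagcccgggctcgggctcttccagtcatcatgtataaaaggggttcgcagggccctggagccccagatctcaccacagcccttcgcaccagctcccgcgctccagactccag
Cxcl10: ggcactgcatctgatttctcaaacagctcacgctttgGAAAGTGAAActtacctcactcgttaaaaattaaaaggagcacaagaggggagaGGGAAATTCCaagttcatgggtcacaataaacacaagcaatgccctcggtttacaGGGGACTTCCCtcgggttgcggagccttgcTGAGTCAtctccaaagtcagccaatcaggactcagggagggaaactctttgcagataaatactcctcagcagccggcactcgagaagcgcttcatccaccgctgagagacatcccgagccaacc

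Both strands were searched for these motifs and for the gamma-activated site TTCNNNGAA. Cxcl1, Cxcl2 and Cxcl3 held the same letters, GGGAATTTCC, starting 71, 97 and 73 bases before the start, and the match on the opposite strand overlapped it with an offset of 1 base. Cxcl10 held an interferon-stimulated element starting 213 bases before the start, NF-kB matches starting 159, 104 and 103 bases before it, of which the last pair overlap, and an AP-1 site at 74 bases. An NF-kB match was present in 8.46% of all 32851 windows of this length, an interferon-stimulated element in 3.44%, and both together in 0.247%. AP-1 sites were present in 7.81% and gamma-activated sites in 8.30%. Of the other windows at hand, those of Ppbp and Cxcl9 held an AP-1 site, and those of Pf4 and Cxcl15 held none of the 4 motifs. A match is a string of letters and does not show that a factor binds there. Windows were found for 7 of the 10 members.

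No ligand separated the treatments. Both anti-SIGLEC15 libraries lay between the IgG libraries for 9 of the 10 ligands, with IgG replicate 1 highest and IgG replicate 2 lowest, whereas 11.3% of all 12484 tested genes showed that order. The remaining ligand, Cxcl11, was at the limit of detection. The groups overlapped for all 10, so 0 lay apart in either direction, where the share of tested genes without overlap was 12.1% higher and 6.02% lower with anti-SIGLEC15.

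**Figure D1:**
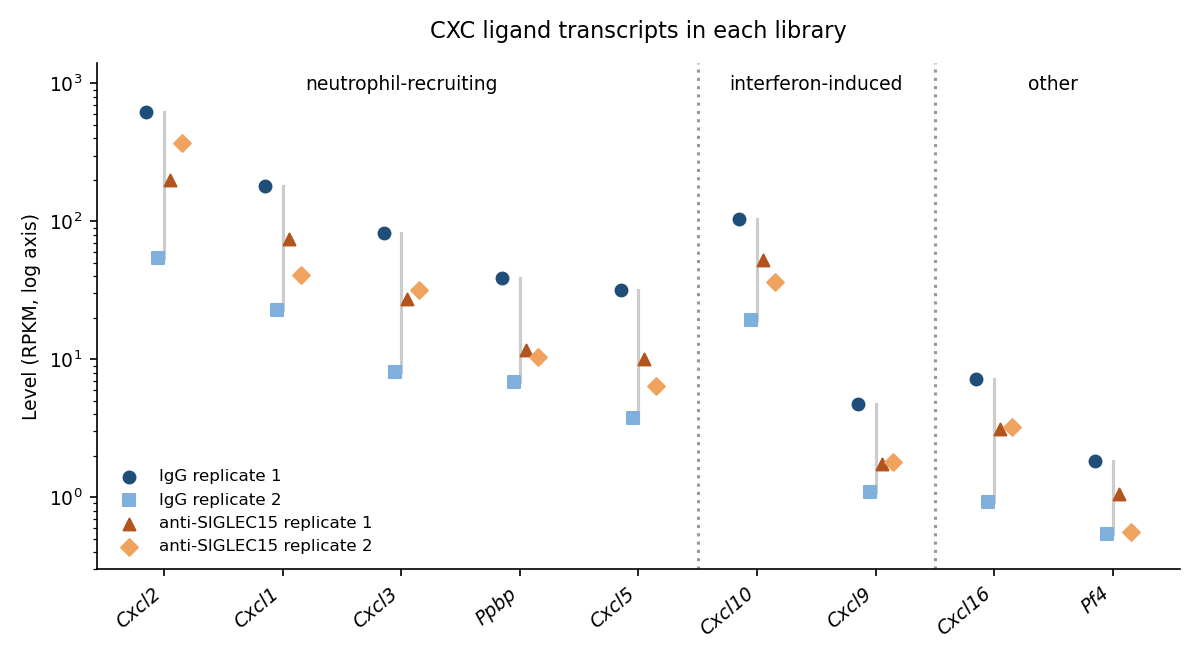
Level of 9 CXC ligands in each library, in RPKM on a log axis, with 1 marker per library and a grey line over the range. IgG replicate 1 (dark circles) is highest and IgG replicate 2 (light squares) lowest for each ligand shown, and Cxcl2 is the most abundant in each library; Cxcl11, at 3 reads or fewer per library, is left out.

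Cxcl2, which encodes the neutrophil attractant also called MIP-2, was the most abundant ligand in every library. It measured 615, 54.6, 198 and 367 RPKM, from 20393, 1750, 6442 and 11288 reads. IgG replicate 1 exceeded IgG replicate 2 by 11.3-fold, the widest range among the ligands, and anti-SIGLEC15 replicate 2 exceeded anti-SIGLEC15 replicate 1 by 1.85-fold. IgG libraries averaged 335 ± 397 RPKM (SD, n = 2), and anti-SIGLEC15 libraries averaged 283 ± 119 RPKM (SD, n = 2). On the log2(RPKM + 1) scale, which weighs the IgG libraries more evenly, the log2 fold change was 0.55 (SE 1.16), opposite in sign to the difference of the means.

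Cxcl1, the gene of the attractant known as KC, came second. Its values were 180.1, 22.9, 74.8 and 40.5 RPKM, from 5411, 666, 2201 and 1129 reads. In contrast to Cxcl2, its level was 1.84-fold higher in anti-SIGLEC15 replicate 1 than in anti-SIGLEC15 replicate 2. The IgG mean of 101 ± 111 RPKM (SD, n = 2) exceeded the anti-SIGLEC15 mean of 57.7 ± 24.2 RPKM (SD, n = 2) by less than the IgG SD, and the log2 fold change was -0.23 (SE 1.00).

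Cxcl3, a close relative of Cxcl2, measured 82.3, 8.13, 27.4 and 31.6 RPKM, with a log2 fold change of 0.14 (SE 1.05). Its anti-SIGLEC15 libraries differed by 1.15-fold, less than for Cxcl1 or Cxcl2. Cxcl1, Cxcl2 and Cxcl3 resemble each other in sequence, and how reads that fit more than 1 gene were counted is not given in the sources used here.

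Cxcl5, an attractant made mainly by epithelial cells, measured 31.9, 3.74, 9.99 and 6.36 RPKM, with a log2 fold change of -0.47 (SE 0.94). Like Cxcl1, it lay higher in anti-SIGLEC15 replicate 1, by 1.57-fold. Ppbp, which encodes the platelet basic protein that is cut to the CXCR2 ligand NAP-2, measured 38.7, 6.79, 11.7 and 10.4 RPKM, with a log2 fold change of -0.54 (SE 0.79).

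Pf4 encodes platelet factor 4, a CXC ligand stored in the same platelet granules as the product of Ppbp. It was near the limit, with 21, 6, 12 and 6 reads or 1.82, 0.536, 1.06 and 0.560 RPKM, so its order among the 3 lower libraries rests on few reads. Ppbp thus exceeded Pf4 in every library. Markers of platelets other than these were scarce: of 10 matched, 1 was tested (Itgb3, an integrin that T cells also express, at 5.61, 12.1, 7.13 and 10.8 RPKM), 5 had at most 3 reads in any library, and Treml1 had 0 reads in all 4.

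Among the interferon-induced ligands, Cxcl10 carried nearly all of the signal. It measured 104, 19.4, 52.3 and 36.1 RPKM from 3742, 678, 1849 and 1207 reads, behind Cxcl2 and Cxcl1 in every library. The mean was 61.5 ± 59.6 RPKM (SD, n = 2) in IgG libraries against 44.2 ± 11.5 RPKM (SD, n = 2) in the treated ones, and the log2 fold change was -0.06 (SE 0.81). Cxcl9, which depends more strictly on interferon gamma, measured 4.74, 1.09, 1.75 and 1.79 RPKM from 229, 51, 83 and 80 reads. Its log2 fold change was -0.32 (SE 0.54). The ratio of Cxcl10 to Cxcl9 lay between 17.8 and 29.8 in the 4 libraries.

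Cxcl11 had 3, 2, 3 and 0 reads. A count of 3 reads would equal 0.0493, 0.0510, 0.0504 and 0.0532 RPKM, so its transcript was not detectable above this limit, which covers counting error only. C57BL/6 mice are known to carry a frameshift in Cxcl11 and to make no functional CXCL11 protein. Cxcl11 was the 1 ligand that did not enter the test.

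Cxcl16 encodes a membrane-anchored ligand of CXCR6 that the proteases ADAM10 and ADAM17 release. Its values were 7.23, 0.918, 3.14 and 3.21 RPKM, with a log2 fold change of 0.07 (SE 0.72). Unlike Cxcl1 or Cxcl2, its anti-SIGLEC15 libraries were within 1.02-fold of each other.

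Limma, fitted to log2(RPKM + 1) of all tested genes with Benjamini-Hochberg adjustment, called 0 of the 9 tested ligands and 0% of the 12484 genes. At an unadjusted p under 0.05 the count was 0 of the 9 ligands and 146 (1.17%) of all tested genes, and limma-voom on recovered reads called 0 of 9 ligands and 0 of 19556 genes, with 185 genes under that unadjusted limit. The log2 fold change was positive for 3 ligands and negative for 6. Its sign and its call turned on which IgG library was kept. Without IgG replicate 1, the log2 fold change of all 9 was positive, from 0.22 to 2.29, and 4 (Cxcl1, Cxcl2, Cxcl3 and Cxcl10) passed as higher with anti-SIGLEC15, against 0.681% of tested genes that passed as higher and 0.32% as lower. Without IgG replicate 2, all 9 were negative, from -1.87 to -0.65, and 6 (those 4 with Cxcl5 and Ppbp) passed as lower, against 9.36% of tested genes passing as lower and 7.7% as higher. In these fits the lone IgG library was assumed to vary like the anti-SIGLEC15 pair. Without either anti-SIGLEC15 library, 0 ligands passed.

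**Figure D2:**
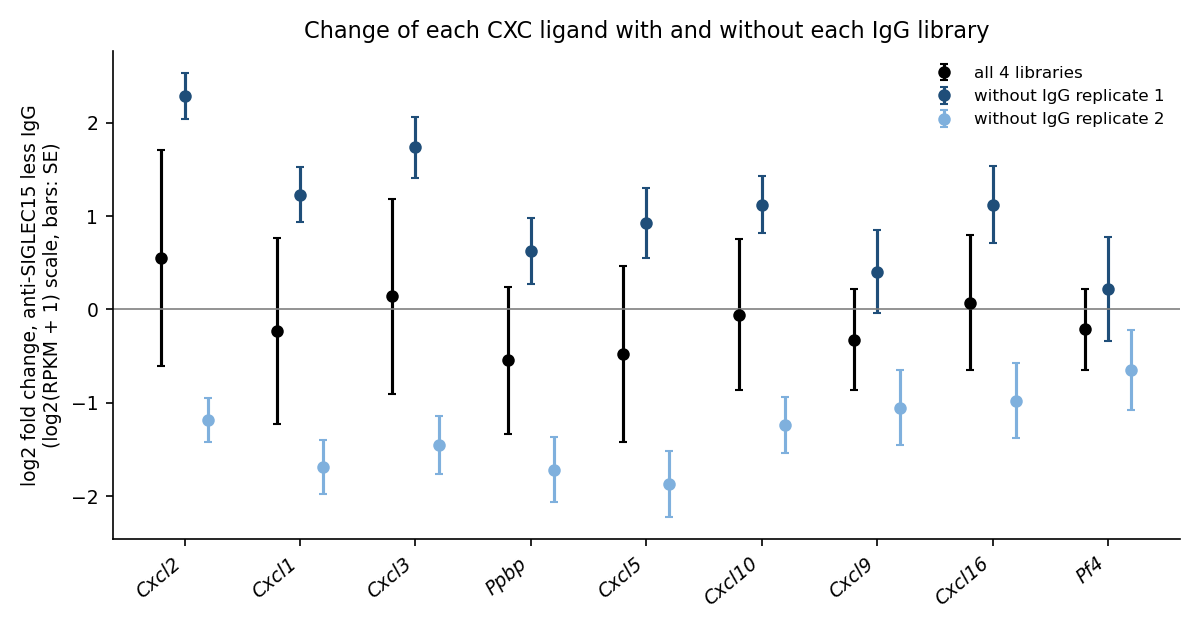
Log2 fold change of each ligand, anti-SIGLEC15 less IgG, on the log2(RPKM + 1) scale with its SE, from all 4 libraries (black) and without IgG replicate 1 (dark blue) or IgG replicate 2 (light blue). The 9 dark blue points lie above 0 and the 9 light blue points below it, while the black points lie within 1 SE of 0.

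Set against each other, the neutrophil-recruiting ligands exceeded the interferon-induced ones in every library. Their summed level was 948, 96.1, 322 and 456 RPKM, against 108, 20.5, 54.1 and 37.9 RPKM, and the ratio of the sums was 8.74, 4.68, 5.96 and 12.1. The mean log2(RPKM + 1) of the first kind less that of the second was 3.60, 1.93, 2.74 and 2.83; without Cxcl11, which adds nearly 0 to its mean, it was 2.08, 1.05, 1.57 and 1.72. This difference averaged 2.77 ± 1.18 with IgG and 2.79 ± 0.0639 with anti-SIGLEC15 (SD, n = 2 each), so the treatments differed by 0.02 (0.08 without Cxcl11), far less than the IgG libraries differed from each other. With the treated pair against IgG replicate 2 alone it was 0.86, and against IgG replicate 1 alone -0.81. It compares transcripts within libraries and is not a test.

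The 2 most abundant ligands moved apart within the anti-SIGLEC15 pair. Of the reads of Cxcl1 and Cxcl2 together, Cxcl2 took 79.0% (95% exact Clopper-Pearson interval 78.5 to 79.5%) in IgG replicate 1 and 72.4% (70.6 to 74.2%) in IgG replicate 2. Its share was 74.5% (73.6 to 75.5%) in anti-SIGLEC15 replicate 1 and 90.9% (90.4 to 91.4%) in anti-SIGLEC15 replicate 2. These intervals cover counting error only. Anti-SIGLEC15 replicate 2 thus stood above the other 3 libraries by more than counting error, and the groups overlapped.

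**Figure D3:**
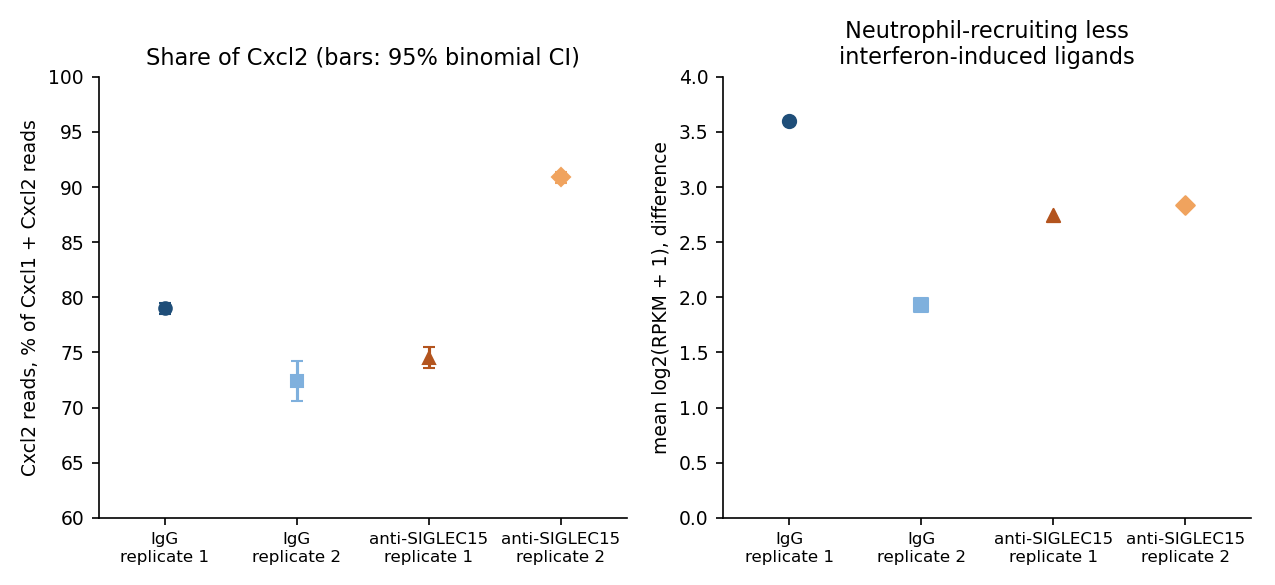
Left, reads of Cxcl2 as a percentage of the reads of Cxcl1 and Cxcl2 in each library, with 95% exact binomial intervals (axis from 60 to 100%). Right, mean log2(RPKM + 1) of the 5 neutrophil-recruiting ligands less that of the 3 interferon-induced ligands; the anti-SIGLEC15 libraries, at 2.74 and 2.83, lie between the IgG libraries at 3.60 and 1.93.

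Markers of other cells moved with the ligands, and their part in these levels was not tested. The neutrophil list summed to 1083, 100.1, 290.5 and 487 RPKM, with 12 of 16 members tested. Of its 12 tested members, 10 had IgG replicate 1 highest and IgG replicate 2 lowest with the others between, against 11.3% of tested genes. S100a9, S100a8 and G0s2, its 3 most abundant members, were 12.4-fold, 13.8-fold and 11.6-fold higher in IgG replicate 1 than in IgG replicate 2, close to the 11.3-fold of Cxcl2. Within the anti-SIGLEC15 pair, 9 of 12 neutrophil markers lay higher in replicate 2, as did Cxcl2 (1.85-fold) and Cxcl3 (1.15-fold). In RPKM without further scaling, Cxcl9 and Cxcl16 were level within that pair (1.02-fold each). Their reads were 83 and 80 for Cxcl9, and 149 and 144 for Cxcl16. Library factors from the median ratio over tested genes were 1.11 for anti-SIGLEC15 replicate 1 and 0.926 for anti-SIGLEC15 replicate 2. Scaling by these factors would put both ligands higher in replicate 2. Ly6g, a defining neutrophil surface marker, had 10, 4, 2 and 6 reads.

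The hepatocyte and hepatoma list summed to 5978, 1226, 2611 and 1262 RPKM and the epithelial list to 2575, 473, 921 and 631 RPKM. Within the anti-SIGLEC15 pair, 12 of 12 hepatocyte and 6 of 7 epithelial markers lay higher in replicate 1, as did Cxcl1, Cxcl5, Ppbp, Cxcl10 and Pf4. Levels in general also ran higher there (library factors 1.11 and 0.926), and the share of all tested genes that did was not counted. Ppbp differed by only 1.12-fold and would lie higher in replicate 2 after scaling by those factors. Pf4 rested on 12 and 6 reads. IgG replicate 1 was highest and IgG replicate 2 lowest in 4 of 12 hepatocyte and 6 of 7 epithelial markers. The tested ligands shared this order, which 11.3% of all tested genes had. Albumin (Alb) and transferrin (Trf) were 5.02-fold and 5.06-fold higher in IgG replicate 1 than in IgG replicate 2, while the whole hepatocyte list ranged from 1.10-fold (Apoa2) to 7.34-fold (Ttr). The keratin genes Krt18 and Krt8 were 5.25-fold and 5.36-fold higher there, and the junction gene Cldn4 8.54-fold. Cdh1, the cadherin gene of epithelia, ran the other way, with a ratio of 0.24. Apoa2, Ttr and Cdh1 were picked after their values were seen. Over the same pair of libraries, Cxcl10 differed by 5.34-fold, Ppbp by 5.70-fold, Cxcl1 by 7.86-fold and Cxcl5 by 8.53-fold. T cell identity genes ran the other way, with sums of 1005, 3023, 2730.1 and 2795 RPKM. Of the macrophage list, 5 of 14 members were tested. Cd68 stayed between 24.5 and 31.0 RPKM, and Adgre1, which encodes the macrophage marker F4/80, had 8 reads or fewer. Lyz2 measured 8.16, 1.62, 2.71 and 4.19 RPKM, 5.04-fold apart between the IgG libraries. It was the 1 tested member with IgG replicate 1 highest and IgG replicate 2 lowest. The list sum of 1565, 273, 577 and 276 RPKM was mostly Apoe, which hepatocytes also make.

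**Figure D4:**
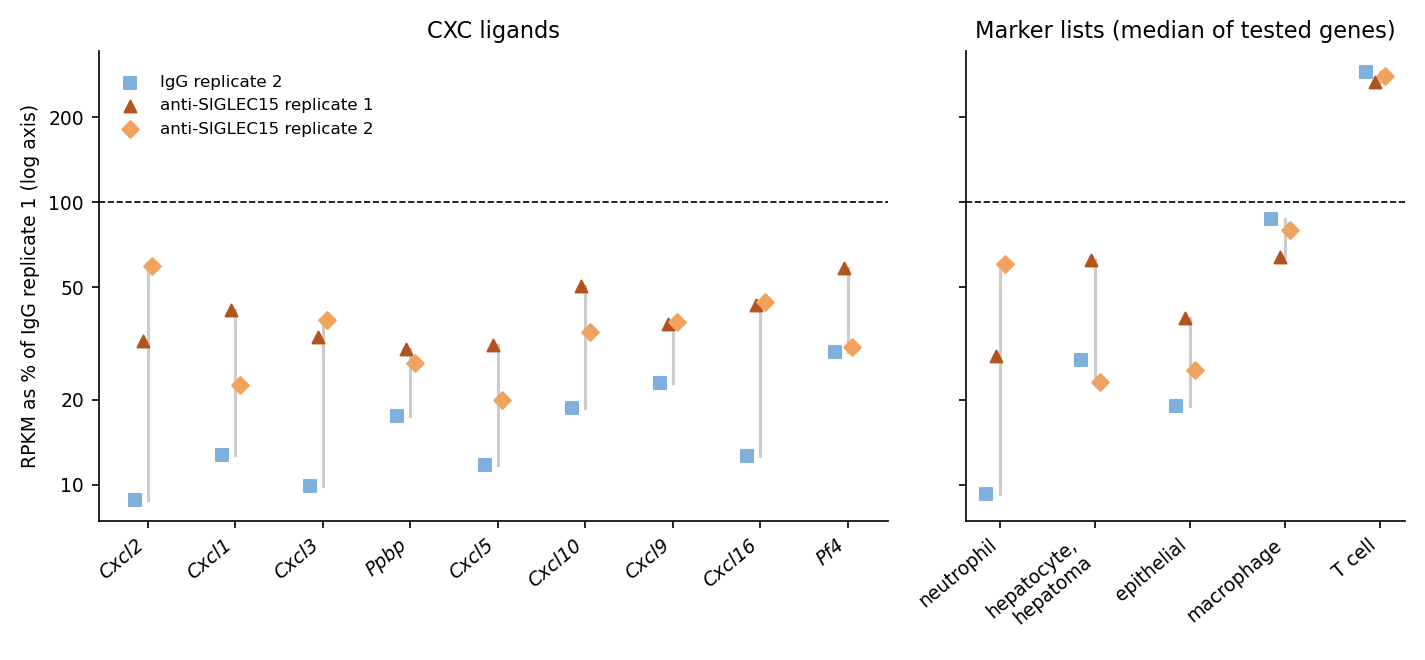
RPKM in the other 3 libraries as a percentage of IgG replicate 1 (dashed line at 100%, log axis), for 9 CXC ligands (left) and as the median over the tested genes of 5 marker lists (right). The ligands lie below 100% in each of these libraries, as do the neutrophil, hepatocyte, epithelial and macrophage medians, while the T cell medians lie at 267% or more.

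Of the 5 other CXC ligands, 1 was tested. Cxcl15, an epithelial neutrophil attractant whose gene sits inside the first cluster from 90794534 to 90803067, measured 81.8, 11.5, 26.6 and 7.60 RPKM. It was as abundant as Cxcl3 in IgG replicate 1, but its lowest library was anti-SIGLEC15 replicate 2, whereas 9 of the 10 ligands above had IgG replicate 2 lowest. Its log2 fold change was -1.06 (SE 1.05), and its sign turned on the IgG library kept. Without IgG replicate 1 it was 0.30 (limma adjusted p = 0.99995), and without IgG replicate 2 it passed as lower, as 9.36% of genes did (-2.43, limma adjusted p = 0.000157). Cxcl12, Cxcl13, Cxcl14 and Cxcl17 had at most 5 reads in any library.

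Of 8 receptor genes 4 were tested, 0 were called, and 3 of the 4 had IgG replicate 1 as their lowest library, where the ligands were highest. Cxcr3, the receptor for CXCL9 and CXCL10, measured 1.26, 6.89, 20.2 and 13.2 RPKM, higher in both anti-SIGLEC15 libraries. Its log2 fold change of 2.04 (SE 0.65) was 1.14 without IgG replicate 1. It was 1.56 under T cell identity scaling, which moved the median of all tested genes from 0.02 to -0.55. Cxcr4, the receptor for CXCL12, also lay higher in both anti-SIGLEC15 libraries, at 27.9, 71.1, 76.5 and 87.1 RPKM. Of all tested genes, 12.1% lay higher in both. Cxcr6, the receptor for CXCL16, measured 42.8, 125, 86.7 and 161 RPKM, with IgG replicate 1 lowest and the groups overlapping. Cxcr2, the receptor on neutrophils for the neutrophil-recruiting ligands, measured 2.35, 0.212, 0.481 and 1.55 RPKM, in the same order of libraries as Cxcl2. For Cxcr3, Cxcr4 and Cxcr6, the fit without IgG replicate 2 passed them as higher, where 7.7% of genes did, and the fit without IgG replicate 1 passed none of the 4 receptors; there Cxcr4 was at 0.20, Cxcr6 at -0.08 and Cxcr2 at 0.68. Cxcr1, Cxcr5 and the scavenging receptors Ackr1 and Ackr3 were too low to test.

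**Figure D5:**
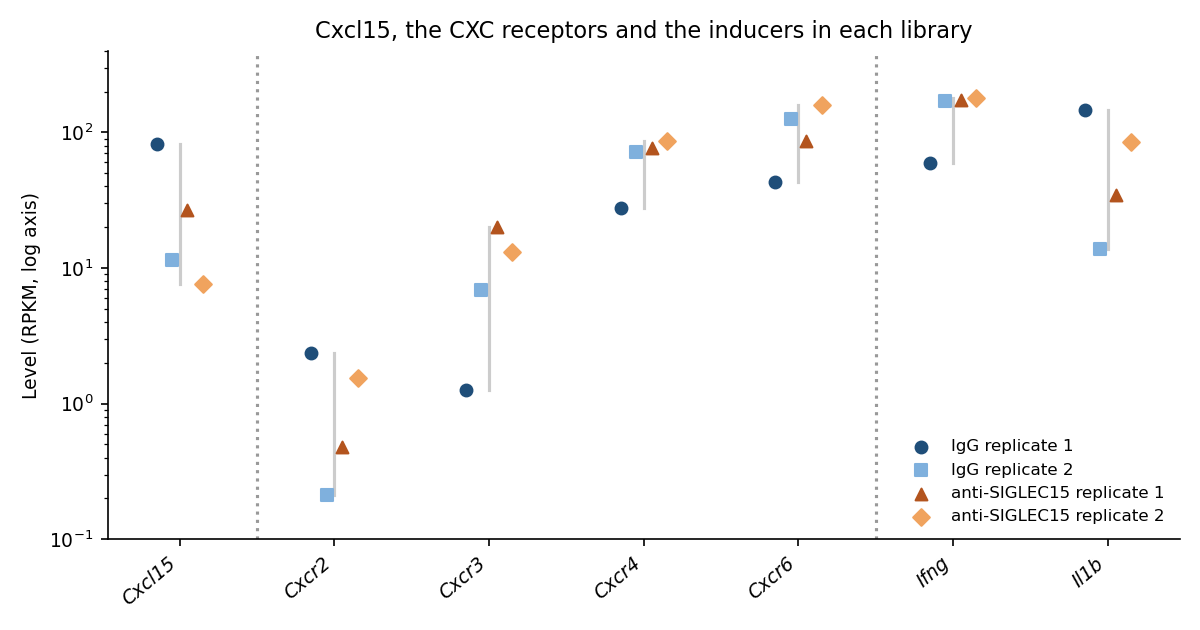
Level of Cxcl15, 4 CXC receptors, the interferon gamma gene Ifng and Il1b in each library, in RPKM on a log axis. Cxcr3, Cxcr4, Cxcr6 and Ifng are lowest in IgG replicate 1 (dark circles), where Cxcl15, Cxcr2 and Il1b are highest.

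Of the enzymes that act on these ligands, Adam10 measured 14.1, 17.3, 15.3 and 13.0 RPKM and Adam17 3.94, 6.58, 6.42 and 6.80 RPKM. Dpp4, the surface peptidase that trims CXCL10, measured 4.27, 13.8, 13.5 and 14.2 RPKM, lowest in IgG replicate 1 as the T cell genes were. Limma called 0 of these 3, and the groups overlapped for each. Dpp4 had a log2 fold change of 0.75 (SE 0.54), which was 0.01 without IgG replicate 1 and passed as higher without IgG replicate 2 (limma adjusted p = 0.000679).

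Of 21 inducers and targets of NF-kB, interleukin 1 and interleukin 17 signalling, 16 were tested, 0 were called, 3 were above and 0 below both IgG libraries in each anti-SIGLEC15 library (12.1% and 6.02% of all tested genes), and the median log2 fold change was 0.46, against 0.02 over all tested genes. The 3 were Tnfaip3, Icam1 and Relb, picked after their values were seen. Il1b, the inflammatory cytokine interleukin 1 beta, measured 146, 13.8, 34.4 and 84.7 RPKM and so ran in the order of Cxcl2. Its log2 fold change of 0.24 (SE 1.16) was 1.90 without IgG replicate 1 (limma adjusted p = 9.45e-07) and -1.42 without IgG replicate 2 (limma adjusted p = 9.59e-05), past the threshold in opposite directions. Nfkbia and Nfkbiz, genes that NF-kB induces, also had IgG replicate 1 highest and IgG replicate 2 lowest. Their range was narrower than that of the ligands, 1.85-fold and 1.61-fold between the IgG libraries. Tnfaip3, an NF-kB inhibitor, went the other way, with 71.2, 204, 215 and 208 RPKM. Il17a and Il17f had at most 10 reads in any library.

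Of 5 genes of interferon gamma signalling, 5 were tested, 0 were called and 2 lay higher in both anti-SIGLEC15 libraries, as 12.1% of all tested genes did (Ifng and Jak2; Jak2 was picked after its values were seen). Ifng measured 59.4, 170.5, 174 and 180.0 RPKM, lowest where Cxcl9 and Cxcl10 were highest. Its log2 fold change of 0.81 (SE 0.53) was 0.06 without IgG replicate 1 and passed as higher without IgG replicate 2 (1.56, limma adjusted p = 7.8e-07). The receptor chains differed in order: Ifngr1, at 89.8, 161, 159.9 and 217 RPKM, was lowest in IgG replicate 1, and Ifngr2, at 10.3, 1.63, 4.28 and 2.27 RPKM, was highest there. Ifngr1, Jak1 and Ifng are the 3 most abundant of the list, and Ifngr2 was picked after its values were seen.

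The genes whose profile over the 4 libraries lay nearest to the mean of the 5 neutrophil-recruiting ligands, among 5972 genes with a mean of at least 5 RPKM, were Oasl1, Cd24a, Ier3, Atf3 and Klf4. The distance is Euclidean between log2(RPKM + 1) profiles centred on their own means, and it was 0.288 for Oasl1 and 0.367 for Klf4. Nearest to the mean of Cxcl9 and Cxcl10 were Cdc42ep4, Pdilt, Cd9, Fosb and Plin2, at 0.105 to 0.149. With 4 libraries, of which the IgG libraries set both ends of the range, these lists describe the profile and nothing more. Ier3, an immediate early gene, measured 683, 100.4, 246 and 185 RPKM, and Plin2, a lipid droplet coat protein, 99.9, 26.2, 45.0 and 36.4 RPKM.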

How the data were processed

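RNA selected with oligo-coated beads was sequenced on a DNBSEQ-G50, per the labels' protocols. The deposited files give 1 value per library for 36464 Ensembl IDs. The authors computed these values as RPKM before they were deposited, a unit read here from the values since value times exon length (GENCODE M21) was a whole multiple of 1 step per library, within 0.02, for at least 98.9% of genes under 1000 reads. Builds GRCm38 and mm10 come from the submitters' processing notes; annotation release, aligner and counter were not given in the sources used here. Symbols came from GENCODE M21 (36386 IDs).

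Differences were fitted across all genes with limma (intensity trend, robust shrinkage) on log2(RPKM + 1), after a filter that kept 12484 genes (1 RPKM or more in 2 or more libraries), and p was adjusted by Benjamini-Hochberg (threshold 0.05). Changes of low genes are understated on this scale. The design allowed for counts, and the fallback for normalized values was used. The test was also run on simulated reads that had the same spread in both groups. In the real data the IgG libraries differed more than the anti-SIGLEC15 libraries (correlation over genes 0.884 and 0.972). That run therefore does not show how the test behaves on these libraries. With 2 libraries against 2, a permutation p cannot go below 0.333.

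Members and lists were chosen with earlier results of these data known. A gene of the interferon list is not reported here. The text names all members, other CXC ligands, receptors and processing enzymes, Ifng, Il1b, up to 3 of the most abundant members of a list, and the 5 genes nearest to each profile, with a few defining markers and inducers too low to test; others are said to be picked after their values were seen. Alternatives were 3 other scalings, 2 other filters, a pseudocount of 0.1, limma-voom on recovered reads (at least 10 in all), leaving out each library, and a replicate block; leaving Cxcl11 out of the contrast was added after the data were seen. Fits ran in limma 3.58.1 under R 4.3.3; summaries used pandas 2.3.3, scipy 1.17.1 and numpy 2.4.6 under Python 3.11.15, and figures matplotlib 3.10.9.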

Additional observations from a re-analysis of the deposited data

How the results depend on the processing

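No gene was called in limma with all 4 libraries under any of the scalings, filters, pseudocounts, the voom fit or the replicate block (0 in each), while leaving out single libraries gave 0 to 2129 calls: 125 without IgG replicate 1 and 2129 without IgG replicate 2. Leaving out each library in turn, the log2 fold change ranged from -1.69 to 1.23 for Cxcl1, -1.18 to 2.29 for Cxcl2, -1.45 to 1.74 for Cxcl3, -1.87 to 0.92 for Cxcl5, -1.72 to 0.63 for Ppbp, -1.05 to 0.41 for Cxcl9, -1.24 to 1.12 for Cxcl10, -0.65 to 0.22 for Pf4 and -0.98 to 1.12 for Cxcl16. Scaling to the T cell identity genes turned 3 signs (Cxcl2 to -0.12, Cxcl3 to -0.53 and Cxcl16 to -0.58), but it also moved the median of all tested genes to -0.55; relative to that median the values were 0.43, 0.01 and -0.03. The other settings turned no ligand's sign and passed none; at 5 RPKM, Cxcl9, Cxcl16 and Pf4 were not tested. The difference between the treatments in the contrast of the 2 kinds of ligand was 0.11 with a pseudocount of 0.1, 0.46 with medians, 0.13 without Ppbp and 0.08 without Cxcl11 (this last chosen after the data were seen), and -0.81 to 0.86 with a library left out. Same-numbered libraries deviated together (correlation over genes 0.33), but 2 pairs share only a number; with the replicate block 0 genes were called, 303 at an unadjusted p under 0.05.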

Other observations

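Targets of interferon gamma other than the ligands did not share 1 order of libraries. Of 24 listed genes 21 were tested with limma and 0 were called. In 9 of the 21, IgG replicate 1 was highest and IgG replicate 2 lowest with both anti-SIGLEC15 libraries between, the order of Cxcl9 and Cxcl10, which 11.3% of all tested genes had. They include Irf1, a transcription factor of the interferon response (89.9 and 33.8 RPKM in the IgG libraries, 56.3 and 55.9 RPKM in the treated ones, an order kept below), and the GTPase gene Iigp1 (18.5, 1.94, 4.30 and 1.94 RPKM). Another 6 lay higher in both anti-SIGLEC15 libraries, where 12.1% of tested genes did, among them the immunoproteasome genes Psmb8 (33.3, 53.5, 56.3 and 53.7 RPKM) and Psmb9 (34.6, 53.9, 56.7 and 58.5 RPKM). IgG replicate 1 was the lowest library for 11 of the 21. Tap1, a peptide transporter, measured 47.2, 66.6, 62.1 and 72.5 RPKM, and the protease inhibitor gene Serpina3g 38.7, 139.9, 135 and 96.9 RPKM. Iigp1, Psmb8 and Psmb9 were picked after their values were seen.

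Of the remaining marker lists, the red cell genes lay lower in both anti-SIGLEC15 libraries for 5 of 5, where 6.02% of tested genes did, and so did not follow the ligands. Of 10 dendritic cell markers 4 were tested, of which Itgax lay higher in both anti-SIGLEC15 libraries (1.55, 3.14, 12.2 and 4.05 RPKM), as 12.1% of tested genes did, and the groups overlapped for Xcr1, Ccr7 and Fscn1. Xcr1 was picked after its values were seen. Endothelial and fibroblast markers were scarce, with 1 of 8 and 1 of 7 tested.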
